A study of Mus musculus with 32 samples.

Results

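Mid-day was set against mid-night in the gastrocnemius of control mice, a calf muscle in which fast fibres predominate. The groups were control mice at Zeitgeber time (ZT, hours from lights on) 6 and control mice at ZT18, with 4 mice each. These 8 libraries, chosen by the labelled genotype and time of harvest, are 8 of the 32 in the series. The labels call these mice Control, and the series design gives them as Sirt1loxP/loxP, intact animals. The mutants, Sf1-Cre; Sirt1loxP/loxP mice, were harvested at the same times (n = 4 each) and are used here for comparison, so that floxed Sirt1 alleles are shared by both genotypes. Sf1-Cre directs the deletion of Sirt1, a deacetylase gene, to cells that express SF1, among them neurons of the brain, and not to muscle. All mice were 10 weeks old and of a mixed genetic background, and neither sex nor a lighting or feeding schedule is given in the labels. Replicates are mice with numbers of their own in the labels. The muscle marker Ckm, muscle creatine kinase, was high in all 8 libraries. It lay between 17400 and 20100 FPKM at ZT6 and between 17100 and 20400 FPKM at ZT18. Acta1, another muscle marker, was listed at 0 in 2 ZT6 libraries, and those values were set missing. Values are FPKM, fragments scaled for the length of the transcript and the size of the library.

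Mice rest mostly in the light and are active and feed mostly in the dark. In muscle fibres, as in other cells, the proteins ARNTL (BMAL1) and CLOCK pair on E-box sequences and drive the Per, Cry, Nr1d and Dbp genes. PER and CRY proteins then repress that pair, and the NR1D1 and NR1D2 receptors repress Arntl, which ROR receptors activate. DBP, TEF and HLF, driven by the same loop, act on D-box sequences of further genes. Muscle RNA also follows cues from outside the fibre that differ between rest and activity, among them glucocorticoids, insulin, temperature and contraction.

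Promoters of genes described below carry the letters of these elements, and they are printed to show how close to the start of transcription the letters lie. The sequences are the 250 bases before the start given by RefSeq for GRCm38.p6, the same build as mm10, 5′ to 3′ on the gene's strand. Capitals mark the element, and positions count from the start, taken as 0. Ciart, at chr3:95882229-95882478 on the minus strand, holds 3 E-boxes (CACGTG) at -116, -58 and -44. Per1, at chr11:69098699-69098948 on the plus strand, holds 1 at -166.
Ciart: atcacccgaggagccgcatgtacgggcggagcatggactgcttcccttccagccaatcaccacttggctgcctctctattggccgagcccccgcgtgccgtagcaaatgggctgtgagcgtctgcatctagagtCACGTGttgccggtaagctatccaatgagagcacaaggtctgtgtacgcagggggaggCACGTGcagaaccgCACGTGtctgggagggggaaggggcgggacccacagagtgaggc
Per1: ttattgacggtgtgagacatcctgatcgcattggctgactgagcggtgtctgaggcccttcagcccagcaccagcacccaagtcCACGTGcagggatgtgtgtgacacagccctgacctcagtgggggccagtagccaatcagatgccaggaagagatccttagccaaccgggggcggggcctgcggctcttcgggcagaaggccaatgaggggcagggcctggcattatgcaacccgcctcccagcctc

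Per3 and Coq10b are the 2 genes lower at ZT6 whose promoter holds a D-box (TTATGTAA, either strand). Per3, at chr4:151044666-151044915 on the minus strand, holds it at -205 and -158. Coq10b, at chr1:55052520-55052769 on the plus strand, holds it on the other strand at -162, beside an E-box at -78. Arntl holds the REV-ERB/ROR element (AA, any base, TAGGTCA) 27 bases after its start, and 30 bases around it are shown, from chr7:113207528-113207557 on the plus strand. Sgk1, at chr10:21993640-21993889 on the plus strand, holds the glucocorticoid response element (AGAACA, any 3 bases, TGTTCT) at -189 and an E-box at -246.
Per3: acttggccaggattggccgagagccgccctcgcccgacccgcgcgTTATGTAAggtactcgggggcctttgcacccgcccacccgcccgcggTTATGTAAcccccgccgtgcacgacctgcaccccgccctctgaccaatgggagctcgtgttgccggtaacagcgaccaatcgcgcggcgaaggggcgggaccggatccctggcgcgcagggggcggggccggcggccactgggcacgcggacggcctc
Coq10b: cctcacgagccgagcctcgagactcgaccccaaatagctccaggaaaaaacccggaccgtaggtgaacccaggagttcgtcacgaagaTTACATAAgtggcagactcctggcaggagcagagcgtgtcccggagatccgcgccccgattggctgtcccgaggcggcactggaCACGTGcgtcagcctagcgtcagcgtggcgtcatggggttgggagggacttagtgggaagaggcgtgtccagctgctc
Arntl: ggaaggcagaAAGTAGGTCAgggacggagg
Sgk1: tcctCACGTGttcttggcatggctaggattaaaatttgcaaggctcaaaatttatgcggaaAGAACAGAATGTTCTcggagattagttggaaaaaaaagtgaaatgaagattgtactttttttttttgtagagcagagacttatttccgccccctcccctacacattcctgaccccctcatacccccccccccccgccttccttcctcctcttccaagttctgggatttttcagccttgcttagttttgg

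Library 0 of ZT18 stood apart from the other libraries of its group, and results are therefore given with and without it. For each library in turn, the genes called without it were taken and the library was placed between the mean of the other time (0) and the mean of its own time (1). Library 0 of ZT18 lay at a median of 0.384, against 0.831 to 1.23 for the other 7 libraries. Of the 650 genes called without it, it lay beyond the other 3 ZT18 libraries on the side of ZT6 in 524 (80.6%), against 12.2% to 46.5% for the other libraries. Its RNA for fibroblasts and matrix was also unlike the rest. Their 23 genes summed to 820 FPKM in it, against 2250 to 2770 FPKM in other ZT18 libraries and 1240 to 1660 FPKM at ZT6. Relative depth, read from steps in low values, was 0.923 to 1.17 at ZT6 and 0.787 to 0.892 at ZT18, where library 0 was at 0.844. The depths of both times do not overlap, absolute depth is unknown, and the part of depth in the results was not tested. Sequencing was done in 4 pools of 8 libraries whose members are not given in the labels, and the part of the pool in the results was not tested.

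**Figure D1:**
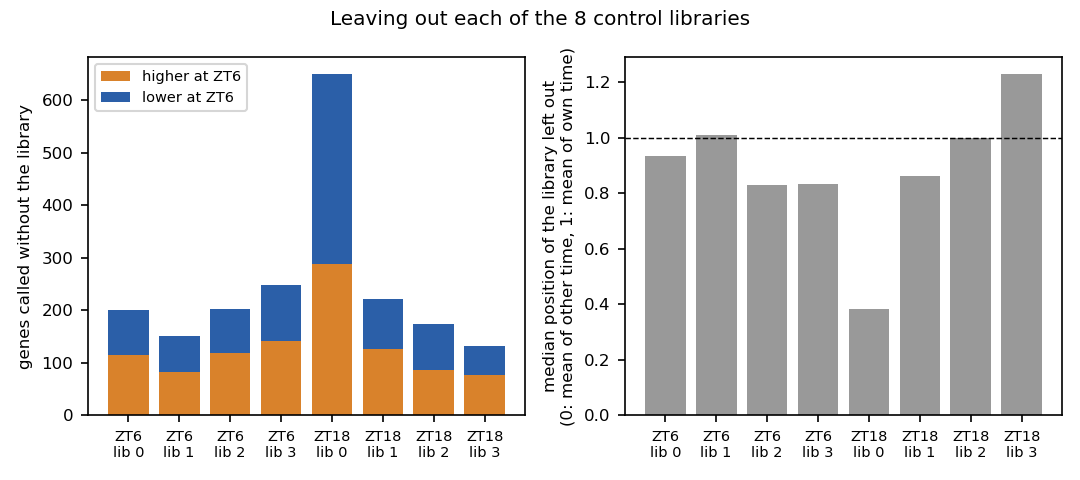
Left, the number of genes called (y axis) when each of the 8 control libraries is left out, split into genes higher (orange) and lower (blue) at ZT6. Right, the median position of the library left out between the mean of the other time (0) and the mean of its own time (1, dashed line); library 0 of ZT18 is at 0.384 with 650 genes called without it.

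Of 11098 genes tested, 338 (3.05%) differed between mid-day and mid-night: 197 (1.78%) were higher at ZT6 and 141 (1.27%) were lower. Genes lower at ZT6 differed by more: their median difference, ZT6 minus ZT18 on log2(FPKM + 1), was -0.66, against 0.43 for genes higher at ZT6. A difference past 1 in size was seen in 30 genes lower at ZT6 and in 10 higher at ZT6. The extremes were Arntl, the clock activator, at 2.04, and Arrdc2, an arrestin-domain gene, at -2.79. In 315 of the 338, the 4 ZT6 libraries did not overlap the 4 ZT18 libraries; over all genes tested 1097 (9.88%) did not overlap. Through the libraries of 1 time alone, 8 genes (ZT6) and 8 genes (ZT18) passed the filter, of which 3 and 4 were called. Over all genes the median difference was 0.01, and 1818 genes had an unadjusted p under 0.05. Tests were made with limma, 1 mean for each of the 4 control times, and a gene was called at a Benjamini-Hochberg adjusted p under 0.05. Without library 0 of ZT18, 650 genes (5.86%) were called, 288 (2.60%) higher and 362 (3.26%) lower at ZT6, and 320 of the 338 were among them. Without one of the other 7 libraries the count was between 131 (without ZT18 library 3) and 247 (without ZT6 library 3).

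**Figure D2:**
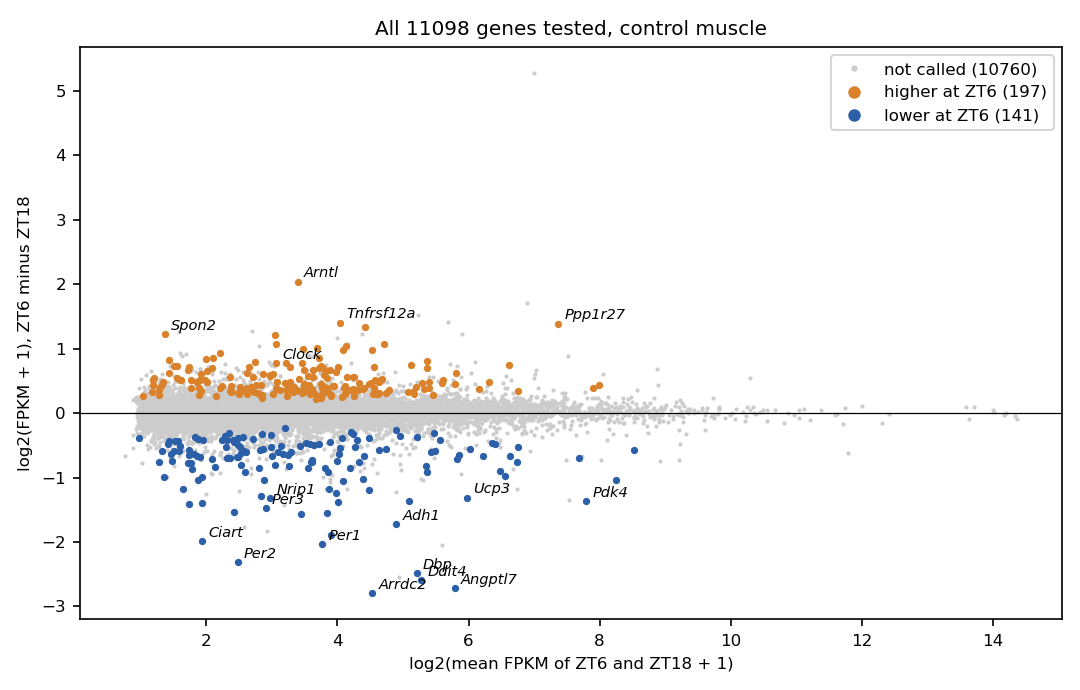
Difference between ZT6 and ZT18 on log2(FPKM + 1) (y axis) against log2 of the mean FPKM of both times plus 1 (x axis), 1 point per gene tested. Orange points are the 197 genes called higher and blue points the 141 called lower at ZT6; the largest blue differences are those of Arrdc2, Angptl7, Ddit4, Dbp and Per2.

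Of 28 clock genes in 5 lists, 24 were tested and 12 differed, against 3.05% of all genes: Arntl, Clock and Nr1d1 were higher at ZT6, and Ciart, Per1, Per2, Per3, Nr1d2, Dbp, Hlf, Tef and Usp2 were lower. The same 12 were called without library 0 of ZT18. These lists, like those below, were written with earlier results of these data known, and their shares are descriptions without a test. The median size of the difference over the 24 was 0.47, against 0.10 over all genes. Arntl (chromosome 7, 113207465 to 113314126 in mm10) was at 15.1, 17.4, 13.8 and 14.7 FPKM at ZT6, against 8.84, 3.53, 1.125 and 1.51 FPKM at ZT18. The highest ZT18 value was that of library 0, and the groups did not overlap. Its mean was 4.06-fold higher at ZT6 (difference 2.04, SE 0.343, adjusted p = 0.00428), and 2.49 without library 0 (adjusted p = 6.28e-05). Clock, the partner of ARNTL, was at 9.85, 10.4, 8.63 and 9.19 FPKM at ZT6, against 6.49, 5.31, 4.25 and 4.70 FPKM at ZT18 (0.77, SE 0.107, adjusted p = 0.00133). Npas2, which encodes a relative of CLOCK, did not reach the filter of 1 FPKM in 4 libraries and was not tested: it was at 0.975, 1.19, 0.990 and 1.54 FPKM at ZT6, against 0.162, 0.0732, 0.155 and 0.0824 FPKM at ZT18. Those groups lie wide apart, and Npas2 was chosen after its values were seen.

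**Figure D3:**
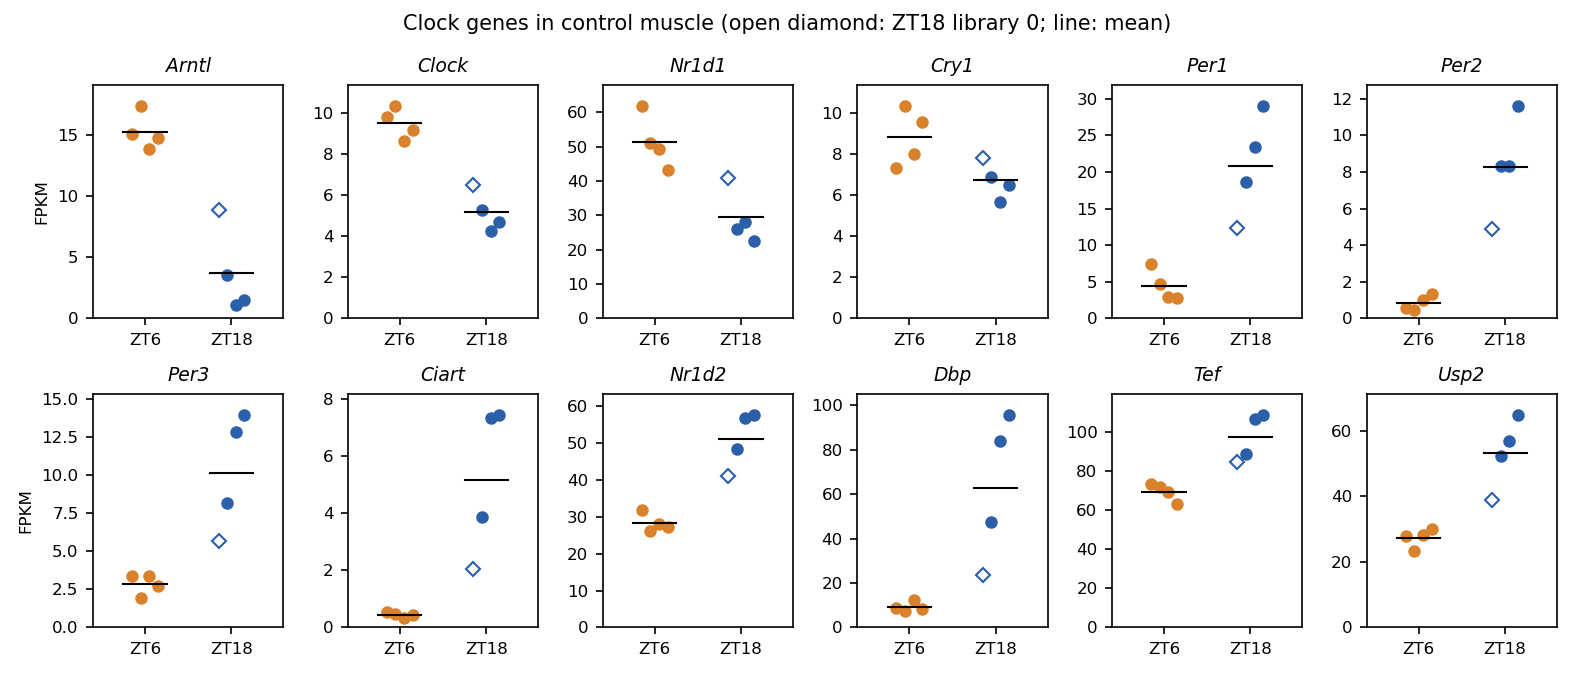
FPKM (y axes, each from 0) of 12 clock genes in the 4 control libraries of ZT6 (orange) and the 4 of ZT18 (blue), with the mean as a line. The open diamond is library 0 of ZT18, which lies nearer to the ZT6 points than the other ZT18 points do in each of the 12 panels; for Cry1 the groups overlap.

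The period genes and Ciart, whose protein represses ARNTL and CLOCK, were low at mid-day. Per1 was at 7.36, 4.69, 2.93 and 2.73 FPKM at ZT6, against 12.4, 18.6, 23.4 and 29.0 FPKM at ZT18 (-2.03, SE 0.312, adjusted p = 0.00290). Per2 was at 0.542, 0.484, 1.02 and 1.31 FPKM at ZT6, against 4.88, 8.32, 8.34 and 11.6 FPKM at ZT18 (-2.31, SE 0.297, adjusted p = 0.00116). In both genes the groups were far apart, and library 0 was the lowest of ZT18. Per3, the period gene with the D-boxes printed above, was at 3.35, 1.91, 3.38 and 2.74 FPKM at ZT6, against 5.69, 8.13, 12.8 and 13.9 FPKM at ZT18 (-1.48, SE 0.228, adjusted p = 0.00290). Ciart, with its 3 E-boxes, was at 0.545, 0.460, 0.320 and 0.434 FPKM at ZT6, against 2.06, 3.88, 7.34 and 7.46 FPKM at ZT18 (-1.99, SE 0.330, adjusted p = 0.00401). The mean of Ciart was 11.8-fold higher at ZT18. Its ZT6 values all lie under 1 FPKM, and it is 1 of the 4 called genes that passed the filter through ZT18 alone. Its lack of overlap thus follows from the filter, and its ratio rests on low values. The cryptochrome genes, which encode the partners of PER, were not called. Cry1 overlapped, at 7.31 to 10.3 FPKM at ZT6 and 5.67 to 7.81 FPKM at ZT18 (0.34, SE 0.152, adjusted p = 0.277). Cry2 was at 9.88 to 11.8 FPKM at ZT6 and 11.1 to 19.9 FPKM at ZT18 (-0.47, SE 0.180, adjusted p = 0.202, and 0.0517 without library 0).

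The paired receptor genes of the loop went opposite ways. Nr1d1 was at 61.9, 51.2, 49.4 and 43.3 FPKM at ZT6, against 41.0, 26.1, 27.9 and 22.6 FPKM at ZT18 (0.81, SE 0.207, adjusted p = 0.0455). Nr1d2 was at 31.9, 26.2, 28.1 and 27.3 FPKM at ZT6, against 41.1, 48.4, 56.9 and 57.6 FPKM at ZT18 (-0.82, SE 0.126, adjusted p = 0.00290). At the other times Nr1d1 averaged 17.4 FPKM at ZT0 and 60.4 FPKM at ZT12, and Nr1d2 28.0 and 46.5 FPKM. The call of Nr1d1 was lost without any 1 library other than ZT18 library 0 (adjusted p between 0.0553 and 0.150), and that of Nr1d2 was kept without each of the 8. Over 19 alternative settings, the Nr1d1 call was lost in 12, among them quantile normalisation (adjusted p = 0.0595), and the Nr1d2 call in 0. In mutants Nr1d1 was not called (1.01, adjusted p = 0.0954). Rora, the gene of an activating receptor, was not called, at 15.7 to 21.2 FPKM at ZT6 and 19.2 to 21.1 FPKM at ZT18, ranges that overlap (-0.15, SE 0.0905, adjusted p = 0.433).

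The output factors Dbp, Hlf and Tef, whose proteins bind D-boxes, were all lower at ZT6. Dbp was at 8.55, 7.41, 12.2 and 8.37 FPKM at ZT6, against 23.5, 47.6, 84.1 and 95.8 FPKM at ZT18 (-2.49, SE 0.319, adjusted p = 0.00116). Without library 0 the difference was -2.88 (adjusted p = 1.36e-05). Tef was at 63.2 to 73.4 FPKM at ZT6 and 84.7 to 109 FPKM at ZT18 (-0.47, SE 0.108, adjusted p = 0.0270), and Hlf at 2.86 to 3.57 FPKM at ZT6 and 4.33 to 6.97 FPKM at ZT18 (-0.69, SE 0.167, adjusted p = 0.0366). Both groups of libraries stayed apart for Tef and Hlf, but the calls were less firm: Tef was lost without ZT6 library 1, 2 or 3 or ZT18 library 2 or 3 (adjusted p between 0.0633 and 0.0995), and Hlf without any 1 library other than ZT18 library 0 (0.0570 to 0.120). Nfil3, which encodes a repressor at the same sites, overlapped (13.9 to 26.1 FPKM at ZT6 and 8.93 to 18.0 FPKM at ZT18, adjusted p = 0.677), as did the E-box repressors Bhlhe40 and Bhlhe41 (adjusted p = 0.992 and 0.905). Among kinases, ligases and a deubiquitinase of the clock, 1 of 6 tested was called, against 3.05% of all genes. Usp2, the deubiquitinase, was at 27.8, 23.3, 28.4 and 30.1 FPKM at ZT6, against 39.0, 52.2, 57.0 and 65.0 FPKM at ZT18 (-0.92, SE 0.145, adjusted p = 0.00341). Csnk1d, Csnk1e, Btrc and Fbxw11 were among those not called.

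Outside the clock, genes higher at mid-day by the naming rule included Ppp1r27, Relt, Tnfrsf12a, Spon2, Zhx2 and Dyrk2. The naming rule took the 12 largest differences in each direction among genes whose libraries do not overlap, and the 5 smallest p. Ppp1r27, which encodes a regulatory subunit of protein phosphatase 1, was at 193, 280, 243 and 223 FPKM at ZT6, against 155, 90.4, 64.0 and 67.3 FPKM at ZT18 (1.39, SE 0.229, adjusted p = 0.00401). Relt, a receptor gene of the tumour necrosis factor family, was at 10.5, 12.1, 9.33 and 9.36 FPKM at ZT6, against 5.07, 4.57, 3.50 and 4.29 FPKM at ZT18 (1.08, SE 0.148, adjusted p = 0.00133). Tnfrsf12a, the gene of the TWEAK receptor of the same family, was at 19.7 to 26.8 FPKM at ZT6 and 5.34 to 12.4 FPKM at ZT18 (1.41, SE 0.311, adjusted p = 0.0228), a call lost without ZT6 library 0 or 1 or ZT18 library 2 or 3 (0.0648 to 0.0803). Spon2, a secreted matrix protein gene, showed the widest ratio among these, 2.61 ± 0.489 FPKM at ZT6 and 0.537 ± 0.0479 FPKM at ZT18 (SD, n = 4 each; 4.86-fold higher at ZT6). Its ZT18 values all lie under 1 FPKM, and it is 1 of the 3 called genes that passed the filter through ZT6 alone. Its lack of overlap thus follows from the filter, and its ratio rests on low values.

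Zhx2, a zinc finger and homeobox factor gene with the smallest p among genes higher at ZT6, was at 16, 17.2, 14.4 and 15.4 FPKM at ZT6, against 10.1, 9.13, 8.43 and 8.61 FPKM at ZT18 (0.74, SE 0.0838, adjusted p = 0.00106). Dyrk2, a kinase gene, was at 19.0 to 24.7 FPKM at ZT6 and 8.66 to 12.8 FPKM at ZT18 (0.99, SE 0.130, adjusted p = 0.00116). Rara, the gene of retinoic acid receptor alpha, was at 5.98 to 7.03 FPKM at ZT6 and 3.48 to 4.02 FPKM at ZT18, groups that are narrow and apart (0.63, SE 0.0771, adjusted p = 0.00112). Fam101b, Cited4 (a coactivator gene), Tnfaip2, Bace1 (an aspartyl protease gene) and Col5a3 (a collagen V chain gene) differed by 0.98 to 1.07, each with a call kept without each of the 8 libraries. Their lack of overlap was a condition of the naming rule. Rrad, the gene of a small GTPase that restrains calcium channels, was at 4.16 to 6.18 FPKM at ZT6 and 1.25 to 3.19 FPKM at ZT18 (0.93, adjusted p = 0.0145), a call lost without ZT6 library 0 or 1 or ZT18 library 3 (0.0513 to 0.0574).

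**Figure D4:**
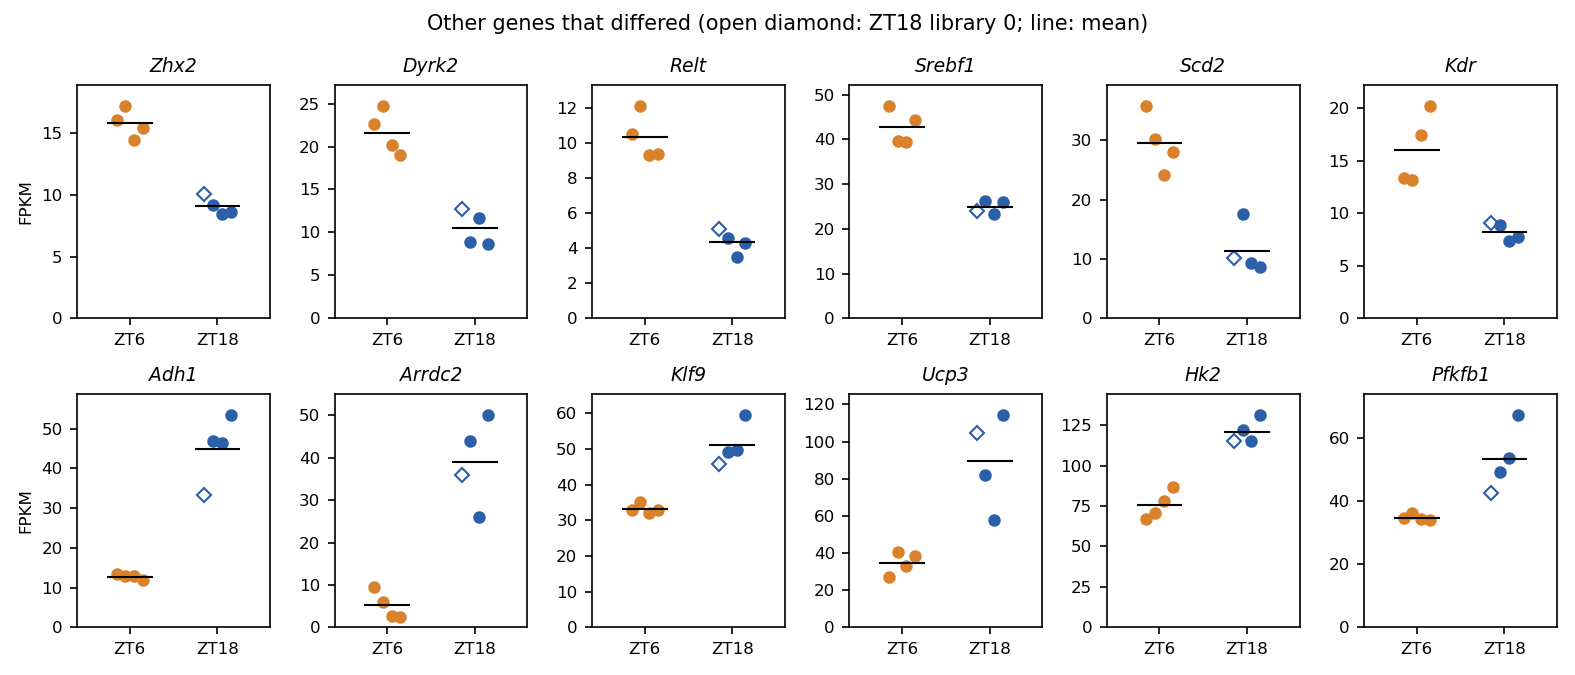
FPKM (y axes, each from 0) of 12 genes outside the clock lists in the 4 control libraries of ZT6 (orange) and the 4 of ZT18 (blue), with the mean as a line and library 0 of ZT18 as an open diamond. The top row holds genes higher at ZT6 and the bottom row genes lower at ZT6. In each panel the groups do not overlap, which the naming rule required of Dyrk2, Relt, Adh1 and Arrdc2.

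Adh1, an alcohol dehydrogenase gene whose enzyme also oxidises retinol, had the smallest p of all genes. It was at 13.4, 12.9, 12.8 and 11.9 FPKM at ZT6, against 33.2, 46.9, 46.4 and 53.5 FPKM at ZT18. The ZT6 libraries lie within 2 FPKM of each other and far below ZT18 (-1.72, SE 0.136, adjusted p = 1.51e-05). Nrip1, which encodes a nuclear receptor corepressor known to restrain oxidative genes in muscle, was at 3.18, 3.46, 3.06 and 4.07 FPKM at ZT6, against 6.78, 10.7, 10.7 and 12.8 FPKM at ZT18 (-1.31, SE 0.156, adjusted p = 0.00106). Map3k6, a stress kinase gene, was at 0.885 to 1.31 FPKM at ZT6 and 3.07 to 5.74 FPKM at ZT18 (-1.39, SE 0.166, adjusted p = 0.00106). Sult1a1, a sulfotransferase gene, was at 11.1 to 13.9 FPKM at ZT6 and 23.4 to 31.2 FPKM at ZT18 (-1.02, adjusted p = 0.00116). Cdc14a, a phosphatase gene, was at 5.37 to 6.65 FPKM at ZT6 and 10.3 to 13.4 FPKM at ZT18 (-0.82, adjusted p = 0.00116). These groups were apart in each case. For Fam107a (-1.53) and Cep85l (-1.56) the groups were apart by the naming rule, which required it. 8430408G22Rik was at 3.31 to 9.10 FPKM at ZT6 and 13.8 to 33.7 FPKM at ZT18 (-1.90, adjusted p = 0.0152), lost without ZT6 library 2 or ZT18 library 3 (0.0528 and 0.0651). Coq10b, a coenzyme Q binding protein gene whose promoter is printed above, was at 6.14 to 9.76 FPKM at ZT6 and 11 to 17.9 FPKM at ZT18 (-0.75, adjusted p = 0.0189), lost without ZT6 library 1 or ZT18 library 2 or 3 (0.0680 to 0.0775).

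Angptl7, a secreted angiopoietin-like factor gene, had the second largest decrease at ZT6 among called genes. It was at 9.88, 7.44, 21.8 and 8.20 FPKM at ZT6, against 26.5, 87.7, 201 and 71.7 FPKM at ZT18 (-2.72, SE 0.542, adjusted p = 0.0125). Tnmd, the defining tendon gene tenomodulin, was at 9.77, 8.23, 13.4 and 5.36 FPKM at ZT6 and at 8.07, 25.5, 42.0 and 21.9 FPKM at ZT18 (adjusted p = 0.263). In both genes library 2 was highest and library 0 lowest of ZT18, and library 2 was highest of ZT6. Library 0 of ZT18 lay above all ZT6 libraries for Angptl7 but within their range for Tnmd. In mutants Angptl7 averaged 15.9 FPKM at ZT6 and 81.2 FPKM at ZT18 (-2.50, adjusted p = 0.0238). Tnmd averaged 16.6 and 20.1 FPKM there (-0.35, adjusted p = 0.903). The 7 tendon genes summed to 82.1 to 231 FPKM at ZT6 and 138 to 521 FPKM at ZT18. In bulk muscle, more cells of a type and more RNA per cell cannot be told apart, and the part of tendon in the Angptl7 difference was not tested. The control call of Angptl7 was lost without ZT6 library 1 (adjusted p = 0.0508).

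Of 26 tested genes known to respond to glucocorticoids, the adrenal hormones whose level in mice is known to cycle over the day, 8 (30.8%) were lower at ZT6 and 0 were higher, against 1.27% and 1.78% of all genes. In 24 of the 26 the difference lay below 0, with a median of -0.55 against 0.01 over all genes. Without library 0 of ZT18, 9 were lower and the median was -0.61. The 8 were Arrdc2, Cebpb, Cebpd, Ddit4, Klf9, Pdk4, Per1 and Sgk1. Arrdc2 was at 9.61, 6.01, 2.77 and 2.54 FPKM at ZT6, against 35.9, 44.0, 26.1 and 50.1 FPKM at ZT18 (-2.79, SE 0.381, adjusted p = 0.00133), and its mean was 7.46-fold higher at ZT18. Klf9, a transcription factor gene induced by the glucocorticoid receptor, was at 33.0, 35.1, 32.2 and 32.9 FPKM at ZT6, against 45.8, 49.3, 49.7 and 59.6 FPKM at ZT18 (-0.60, SE 0.0906, adjusted p = 0.00281). For Klf9 the 4 ZT6 libraries were nearly alike, while for Arrdc2 libraries 0 and 1 of ZT6 lay above libraries 2 and 3. Arrdc2, Klf9 and Per1 kept their calls without each of the 8 libraries.

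The other members of that group were less firm. Ddit4, an inhibitor of the growth kinase complex mTORC1, was at 29.3, 11.4, 3.77 and 4.22 FPKM at ZT6, against 41.0, 80.3, 38.1 and 93.5 FPKM at ZT18 (-2.60, SE 0.582, adjusted p = 0.0241). Its call was lost without ZT6 library 1, 2 or 3 or ZT18 library 1 or 3 (0.0559 to 0.0883). Sgk1, a kinase gene whose promoter is printed above and which was named after its values were seen, was at 82.5, 88.7, 79.1 and 62.5 FPKM at ZT6, against 128, 125, 120 and 159 FPKM at ZT18 (-0.76, SE 0.189, adjusted p = 0.0396). It was lost without any 1 library other than ZT18 library 0 (0.0680 to 0.135). The C/EBP factor genes were at 6.30 to 8.24 FPKM at ZT6 and 10.9 to 17.8 FPKM at ZT18 for Cebpb (adjusted p = 0.0232), and at 2.89 to 6.18 FPKM at ZT6 and 7.47 to 21.7 FPKM at ZT18 for Cebpd (adjusted p = 0.0471). Cebpb was lost without ZT6 library 0 or 1 or ZT18 library 1 or 3 (0.0572 to 0.0888), and Cebpd without any 1 library other than ZT18 library 0 (0.0643 to 0.151). Tsc22d3 and Fkbp5, further targets of the receptor named after their values were seen, were not called. Tsc22d3 was at 108 to 159 FPKM at ZT6 and 187 to 284 FPKM at ZT18 (adjusted p = 0.108), and Fkbp5 at 19.6 to 28.6 FPKM at ZT6 and 20.2 to 43.5 FPKM at ZT18 (adjusted p = 0.521). Of 5 alpha-arrestin genes tested, 2 were lower at ZT6, against 1.27% of all genes: Arrdc2, already counted above, and Arrdc3. Arrdc3, which is not in the glucocorticoid list, was at 12.9 to 23.6 FPKM at ZT6 and 33.2 to 61.2 FPKM at ZT18 (-1.37, adjusted p = 0.0111), lost without ZT18 library 3 (0.0508).

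Ucp3, Pdk4, Hk2 and Pfkfb1, genes of the choice between fat and glucose as fuel, were lower at mid-day, and 3 genes of lipid synthesis were higher. Of 24 fatty acid oxidation genes tested, 2 were lower at ZT6 and 0 higher, against 1.27% and 1.78% of all genes, and 22 lay below 0 (median -0.18), against 46.2% of all genes. Ucp3, the uncoupling protein of muscle mitochondria, was at 26.9, 40.6, 33.1 and 38.6 FPKM at ZT6, against 105, 82.0, 57.8 and 114 FPKM at ZT18 (-1.31, SE 0.243, adjusted p = 0.00840). Pdk4, the kinase that turns off pyruvate dehydrogenase in fasting, was at 85.1, 144, 106 and 163 FPKM at ZT6, against 312, 276, 254 and 434 FPKM at ZT18 (-1.36, SE 0.316, adjusted p = 0.0292). Library 0 of ZT18 was not the lowest of its group in either gene. The Pdk4 call was lost without ZT6 library 0, 1 or 2 or ZT18 library 1, 2 or 3 (0.0501 to 0.105). Of 25 genes of glucose uptake and glycolysis, 2 (8.00%) were lower at ZT6, against 1.27% of all genes, and 0 higher. Without library 0 of ZT18, 2 genes of each of these lists were lower, against 3.26% of all genes. Pdk4 was also counted among the glucocorticoid genes, and nothing about either fuel list is read from so few calls. Hk2, the hexokinase that traps glucose in the fibre, was at 67.2, 70.9, 78.1 and 87.0 FPKM at ZT6, against 115, 122, 115 and 131 FPKM at ZT18 (-0.67, SE 0.108, adjusted p = 0.00364). Pfkfb1, which makes and removes the activator of phosphofructokinase, was at 34.0 to 36.2 FPKM at ZT6 and 42.7 to 67.4 FPKM at ZT18 (-0.58, SE 0.110, adjusted p = 0.00965).

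Of 22 genes of lipid synthesis tested, 3 were higher at ZT6, against 1.78% of all genes, and 0 lower, and 17 lay above 0 (median 0.48), against 53.8% of all genes. Without library 0 of ZT18 the median was 0.33, with 3 higher and 1 lower, Gpam (-0.62, adjusted p = 0.0286), an acyltransferase gene of triglyceride synthesis named after its values were seen. Srebf1, the gene of the transcription factor SREBP1, was at 47.5, 39.6, 39.4 and 44.3 FPKM at ZT6, against 24.0, 26.1, 23.3 and 26.0 FPKM at ZT18 (0.75, SE 0.105, adjusted p = 0.00136). Scd2, a stearoyl-CoA desaturase gene whose entry also holds Mir5114, was at 35.8, 30.2, 24.1 and 28.1 FPKM at ZT6, against 10.2, 17.5, 9.27 and 8.72 FPKM at ZT18 (1.33, SE 0.173, adjusted p = 0.00116). Both were apart between the times. Insig1, which holds SREBP in the endoplasmic reticulum, was at 9.14 to 14.8 FPKM at ZT6 and 4.50 to 7.29 FPKM at ZT18 (0.78, adjusted p = 0.0245), lost without ZT6 library 3 or ZT18 library 2 or 3 (0.0531 to 0.0858). Fasn and Scd1, which fat cells express strongly and which were named after their values were seen, were not called (adjusted p = 0.455 and 0.670). Fasn was at 16.1, 9.03, 36.2 and 148 FPKM at ZT6 and at 3.79, 68.8, 4.64 and 6.51 FPKM at ZT18. Plin1 was at 9.27, 6.47, 16.1 and 46.1 FPKM at ZT6 and at 4.76, 28.4, 4.19 and 8.45 FPKM at ZT18. Fasn and Plin1, a fat cell gene, were highest in ZT6 library 3 and, within ZT18, in library 1. Of 12 fat cell genes tested, 10 also lay above 0, with a median of 0.28, and of 0.01 without library 0 of ZT18. The part of fat cells in the lipid synthesis differences was not tested. In fat storage, 1 of 12 genes was called, against 3.05% of all genes. Plin4, a lipid droplet coat gene, was at 49.5 to 67.3 FPKM at ZT6 and 76.6 to 106 FPKM at ZT18 (-0.66, adjusted p = 0.0409), lost without ZT6 library 0, 1 or 2 or ZT18 library 1, 2 or 3 (0.0557 to 0.138).

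Lists of the cell cycle, fast fibres, Krüppel-like factors, mTORC1 inhibitors, retinoids and coenzyme Q, insulin signalling, excitation and chaperones had 1 or 2 called genes each. Of all genes 3.05% were called, and nothing about a list is read from so few calls. Wee1, a kinase that delays cell division and a known clock target, was at 1.32, 1.34, 1.33 and 1.40 FPKM at ZT6, against 2.16, 4.56, 3.88 and 5.24 FPKM at ZT18 (-1.03, SE 0.211, adjusted p = 0.0142), lost without ZT18 library 3 (0.0622). Gadd45a, a stress gene of the same list (2 of 12 lower), was at 11.4 to 12.8 FPKM at ZT6 and 16.2 to 30.6 FPKM at ZT18 (-0.86, adjusted p = 0.0174), lost without ZT6 library 1 or 2 or ZT18 library 3 (0.0510 to 0.0651). Both have narrow ZT6 groups and wide ZT18 groups. Of 14 fast fibre genes, 1 was lower at ZT6: Myh2, the IIa myosin heavy chain gene, was at 246 to 356 FPKM at ZT6 and 402 to 474 FPKM at ZT18 (-0.57, adjusted p = 0.0300), lost without ZT6 library 0, 1 or 2 or ZT18 library 2 or 3 (0.0510 to 0.103). Klf9 was 1 of 13 Krüppel-like factor genes, Ddit4 1 of 9 mTORC1 inhibitors and Adh1 and Coq10b 2 of 11 retinoid and coenzyme Q genes. Calls in the insulin, excitation and chaperone lists were higher at ZT6. Pik3ca, the catalytic subunit of the insulin-responsive lipid kinase (1 of 18 insulin genes), was at 13.4 to 16.9 FPKM at ZT6 and 10.3 to 13.1 FPKM at ZT18, lost without ZT6 library 0 or 1 or ZT18 library 1, 2 or 3 (0.0642 to 0.0984). Kcnj11, a subunit of the ATP-sensitive potassium channel (1 of 19 excitation genes), was at 49.0 to 61.5 FPKM at ZT6 and 34.9 to 46.1 FPKM at ZT18, lost without ZT6 library 0 or 1 or ZT18 library 2 or 3 (0.0511 to 0.0614). The chaperone genes Hspb8 and Dnajb1 (2 of 35) were at 246 to 303 and 4.30 to 6.01 FPKM at ZT6, against 190 to 232 and 3.16 to 3.78 FPKM at ZT18. Hspb8 was lost without ZT6 library 0, 1 or 2 or ZT18 library 1, 2 or 3 (0.0557 to 0.108), and Dnajb1 without any 1 library other than ZT6 library 0 (0.0538 to 0.119).

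Several housekeeping and muscle programmes had no called gene in limma. Over all genes 3.05% were called, and 1818 of 11098 had an unadjusted p under 0.05. At that share few calls would fall in lists of this size, and nothing about a programme is read from 0 calls. The programmes were 52 nuclear genes of oxidative phosphorylation (median difference 0.01, 3 with an unadjusted p under 0.05), 62 genes of the cytosolic ribosome (4 unadjusted), 76 of the mitochondrial ribosome (2 unadjusted) and 37 of the proteasome (1 unadjusted). The same held for 20 genes of endoplasmic reticulum stress (6 unadjusted), 16 immediate early genes (7 unadjusted), 20 genes of atrophy and autophagy (5 unadjusted), 16 glycogen genes (3 unadjusted), 18 of amino acid metabolism (5 unadjusted), 14 of NAD metabolism and sirtuins (1 unadjusted) and 16 of slow fibres (1 unadjusted). Trim63 and Fbxo32, the ubiquitin ligases of muscle atrophy, were at 152 to 194 and 44.8 to 82.8 FPKM at ZT6, against 172 to 257 and 66.6 to 105 FPKM at ZT18, ranges that overlap (adjusted p = 0.353 and 0.744). Fbxo21 of the atrophy list was called without library 0 of ZT18 (-0.54, adjusted p = 0.0333), as were Slc38a4, an amino acid transporter gene (1.06, 0.00365), and the entry of Glul, glutamine synthetase (-1.67, 0.0266). Without that library 2 genes of endoplasmic reticulum stress, Herpud1 (-0.56, 0.0179) and Chac1 (-2.46, 0.0215), and 2 immediate early genes, Ier3 (-0.81, 0.0349) and Klf6 (-0.50, 0.0476), were also called lower at ZT6, against 3.26% of all genes. Chac1, Ier3 and Klf6 were named after their values were seen. Slc38a4 was at 78.7 to 92.2 FPKM at ZT6, and at ZT18 library 0, at 84.5 FPKM, lay within that range while the other 3 were at 31.9 to 52.1 FPKM.

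Among markers of other cell types, endothelial genes were split, with 2 of 20 called (10.0%), against 3.05% of all genes. Kdr, the receptor of vascular endothelial growth factor, was at 13.3, 13.1, 17.5 and 20.2 FPKM at ZT6, against 9.04, 8.89, 7.32 and 7.78 FPKM at ZT18 (0.86, SE 0.156, adjusted p = 0.00715). Aqp1, the water channel of capillaries, went the other way, at 144, 161, 163 and 156 FPKM at ZT6, against 220, 250, 245 and 303 FPKM at ZT18 (-0.69, SE 0.0917, adjusted p = 0.00116). The remaining 18 of 20 endothelial genes were not called, and their defining members Pecam1 (28.8 to 34.5 FPKM at ZT6, 31.1 to 38.2 FPKM at ZT18) and Cdh5 (24.7 to 32.8 FPKM at ZT6, 24.2 to 28.7 FPKM at ZT18) overlapped. Limma called 0 genes in the lists of fibroblasts (23 tested, 0 with an unadjusted p under 0.05), tendon (6, 3 unadjusted), fat cells (12, 0 unadjusted), lymphocytes (4, 0 unadjusted), macrophages (13, 1 unadjusted), Schwann cells (8, 2 unadjusted), red cells (4, 3 unadjusted) and smooth muscle (10, 2 unadjusted). Over all genes 1818 of 11098 had an unadjusted p under 0.05. The lists are short, and nothing about a cell type is read from so few calls. Without library 0 of ZT18, the fibroblast gene Dcn (-0.65, adjusted p = 0.0281), the macrophage gene Cd163 (-0.81, 0.00544) and the pericyte gene Rgs5 (-0.55, 0.0460) were among those called lower at ZT6. All 8 Schwann genes and all 4 red cell genes lay above 0 (medians 0.39 and 0.65), against 53.8% of all genes. Without library 0 of ZT18 these medians were 0.23 and 0.50, and in mutants 0.03 and -0.15. Below 0 lay 5 of 6 tendon genes and 17 of 23 fibroblast genes, against 46.2% of all genes. The tendon median was -1.10 (-1.49 without library 0 of ZT18, -0.61 in mutants). The fibroblast median was -0.16, and -0.47 without library 0 of ZT18. In mutants it was 0.43, with 4 fibroblast genes called higher at ZT6. Summed red cell RNA was 579 to 960 FPKM at ZT6 and 368 to 828 FPKM at ZT18, and summed Schwann cell RNA 145 to 211 FPKM at ZT6 and 68.4 to 205 FPKM at ZT18. The part of these cells in the differences above was not tested.

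For most called genes, mid-day and mid-night were also the extremes of the 4 times. Of the 197 genes higher at ZT6, 158 had their highest control mean at ZT6, 34 at ZT0 and 5 at ZT12, and 147 had their lowest at ZT18. Of the 141 lower at ZT6, 117 were highest at ZT18, 17 at ZT0 and 7 at ZT12, and 124 were lowest at ZT6. Both times were extremes together in 115 of the 197 and in 102 of the 141. Exceptions included Nr1d1, highest at ZT12, and Aqp1, which averaged 269 FPKM at ZT0 and 174 FPKM at ZT12 and so was highest at ZT0. These positions come from the libraries that gave the calls and have no test.

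The E-box, read in the promoters of 8737 of the 11098 genes with a RefSeq promoter (250 bases before to 50 after the start), was in 22 of 112 genes lower at ZT6 (19.6%), in 19 of 151 higher at ZT6 (12.6%) and in 12.2% of all genes tested. Without library 0 of ZT18 the share was 14.0% of genes lower and 12.2% of genes higher at ZT6. The D-box was in 1.79% of genes lower and 0% of genes higher at ZT6, against 0.561% of all. The REV-ERB/ROR element was in 2 genes higher at ZT6, Arntl and Leo1 (1.32%), against 0.195% of all, and the glucocorticoid response element in 1 gene tested, Sgk1 (0.0114%). The cAMP response element (TGACGTCA) was in 8 genes higher (5.30%) and 1 gene lower at ZT6 (0.893%), against 3.73% of all. All were searched on both strands, and these shares describe letters, not binding.

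The mutants, measured in other mice, showed the same directions for nearly all genes called in controls. At ZT6 against ZT18, 216 genes (1.95%) were called in mutants, 116 (1.05%) higher and 100 (0.901%) lower at ZT6. Of the control calls, 115 were also called in mutants in the same direction, which is 34.0% of the control calls and 53.2% of the mutant calls. The sign was shared by 330 of the 338, and 0 genes were called in opposite directions. How many of all genes tested share their sign is not given here, so 330 has no share to be set against. The median mutant difference was 0.37 for genes higher and -0.59 for genes lower in controls, against control medians of 0.43 and -0.66. In mutants Arntl averaged 16.7 ± 0.902 FPKM at ZT6 and 1.41 ± 0.185 FPKM at ZT18 (SD, n = 4 each; difference 2.88), and no ZT18 library was above 1.52 FPKM. Dbp averaged 5.02 FPKM at ZT6 and 69.7 FPKM at ZT18 in mutants (-3.57), and Adh1 13.4 and 42.0 FPKM (-1.57). Srebf1 was not called in mutants (37.5 FPKM at ZT6 and 27.7 FPKM at ZT18, 0.42, adjusted p = 0.360), nor were Pdk4 (-1.40, adjusted p = 0.249) or Myh2 (-0.24, adjusted p = 0.799). A test of the difference between genotypes called 0 genes in limma, with 303 at an unadjusted p under 0.05 and a smallest adjusted p of 0.998. Without library 0 of control ZT18 it also called 0, with 617 unadjusted.

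**Figure D5:**
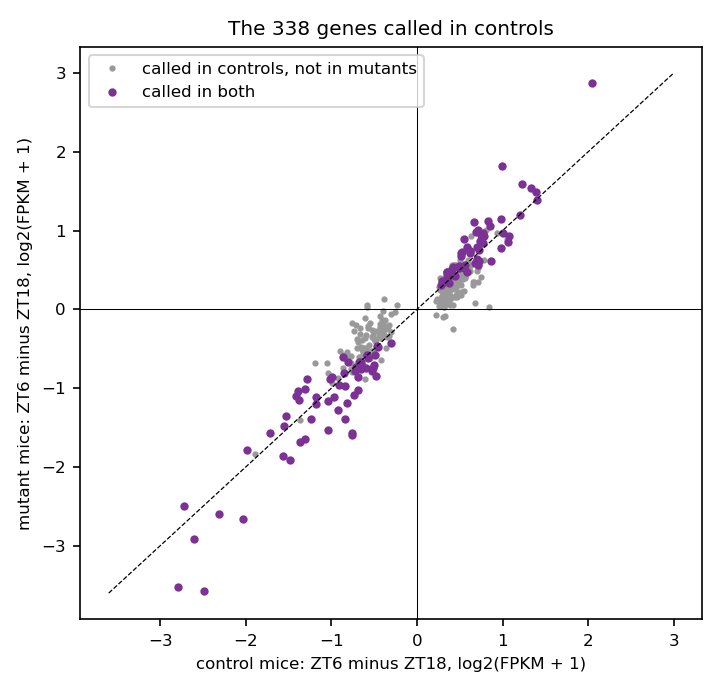
Difference between ZT6 and ZT18 on log2(FPKM + 1) in mutants (y axis) against that in controls (x axis) for the 338 genes called in controls. Purple points are the 115 also called in mutants, grey points the others, and the dashed line marks equal differences; 330 points share their sign.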

How the data were processed

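RNA of control gastrocnemius was measured by stranded mRNA sequencing, per the labels' protocols. The authors computed the deposited FPKM values on mm10, per the submitters' processing notes; the aligner, counter and annotation are not given in the sources used here. Columns name genotype, time and a library number, which the labels do not tie to a mouse. FPKM carry no counts, so absolute depth is unknown; relative depth was read from low values of 878 rare genes.

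Of 16634 entries, those with at least 1 FPKM in 4 or more of the 8 libraries were tested on log2(FPKM + 1), which understates changes of low genes. An exact 0 of a gene with a median of at least 10 FPKM was set missing (9 tested genes, such as Acta1, listed at 0 in 2 ZT6 libraries). limma 3.58.1 in R 4.3.3 (trended prior, 12 residual degrees of freedom, 2-sided, Benjamini-Hochberg) was fitted to the 16 control libraries; it was tested on simulated data. Loci of Tnfrsf12a, Angptl7, Cebpd, Srebf1, Clock, Ciart, Dbp, Cep85l, 8430408G22Rik, Gadd45a and Plin4 overlap other entries, and whether counting used the strand is not given, so their values are uncertain. File starts were counted from 0, and 1 was added.

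Genes were named by a rule: tested clock genes; the 12 largest differences in each direction among single-symbol entries whose libraries do not overlap; the 5 smallest p in each direction; and up to 4 called members of each list, or else 2 members by smallest p. The members, lists and tests were chosen with earlier results of these data known. Some named genes are not reported here, and most of them had no call. Python 3.11.15 with pandas 2.3.3 made the summaries. The alternatives were other fits, pseudocounts, filters, scalings, variance models and leaving out each library.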

Additional observations from a re-analysis of the deposited data

Results flagged for a closer look

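Among 222 groups of 4 libraries checked for the named genes, 13 had 1 library far from the other 3 by Dixon's criterion for the gap to the nearest library relative to the range; chance alone gives about 1 in 20. High values at ZT6 were 14.7 FPKM for Col5a3 in library 0 (others 13.25 to 13.36), 21.75 FPKM for Angptl7 in library 2 (others 7.44 to 9.88), and, in library 3, 14.8 FPKM for Insig1 (others 9.14 to 9.55), 99.66 FPKM for Cidea, a gene of brown fat cells (others 1.15 to 14.0), and 4.63 FPKM for the leukocyte gene Ptprc (others 1.11 to 1.53). High values at ZT18 were, in library 1, 17.53 FPKM for the Scd2 entry (others 8.72 to 10.2), 13.36 FPKM for Cdc14a (others 10.3 to 10.7) and 37.37 FPKM for Cidea (others 0.915 to 1.23), and in library 0, 46.56 FPKM for the mitochondrial ribosome gene Mrpl28 (others 38.2 to 39.2). Low values at ZT6 were 1.704 FPKM for the ribosomal gene Rpl31 in library 1 (others 2.21 to 2.23) and 56.55 FPKM for the proteasome gene Psmb2 in library 3 (others 67.8 to 69.5). Low values at ZT18 were 5.833 FPKM for Fbxo21 in library 0 (others 7.80 to 8.16) and 13.63 FPKM for Mrps5, a mitochondrial ribosome gene, in library 3 (others 15.1 to 15.3).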

How the results depend on the processing

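The 338 control calls became 740 with array weights, which give less weight to libraries that stand apart, and 691 with the 8 libraries alone in the fit and library 0 of ZT18 left out, a setting chosen after seeing the data. Without each of the 8 libraries in turn they ranged from 131 to 650, and the share higher at ZT6 was 44.3% without library 0 of ZT18 against 58.3% with it. In the other settings the count was between 227 (8 libraries in the fit) and 377 (quantile normalisation). The 216 mutant calls ranged from 140 to 210 when 1 mutant library was left out. Of 59 named called genes, 36 were called in each of the 19 settings that tested them, and in none did a called difference change sign. No paired analysis was possible because the labels number mice differently in each group and the columns' library numbers do not identify mice. Depth limits genes near 1 FPKM, and its size per library is unknown.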
